A study of Homo sapiens with 2 samples.

Results

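Periostin, encoded by POSTN, is a matricellular protein that fibroblasts secrete. The expression of 10 interleukin genes was examined after its knockdown in MRC-5 cells, fibroblasts from human fetal lung. The genes were IL1A, IL1B, IL18 and IL33 of the IL-1 family, IL6, IL11 and LIF of the IL-6 family, and IL24, IL32 and IL15. They were taken by name, with earlier results of these data known, and every probe that carried a RefSeq accession of one of them was used. This gave 10 of the 21743 genes named on the array, measured by 14 probes and 41 spots. One culture was transfected with control siRNA and the other with periostin siRNA, for which 10 nM and 48 h are given. The dose and time of the control siRNA on the array are not given in the sources used here. Each RNA was hybridized to 1 single-colour Agilent array, which makes 2 arrays in all. The question was which transcripts differ once periostin is reduced. The cells are 1 line, each condition was 1 array, and no replicate was given, so that no difference below could be tested or checked in another culture and no p-value is given.

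The interleukins of the IL-1 family are alarm cytokines. IL-1α and IL-1β bind the same receptor, which signals through MYD88 and IRAK kinases to NF-kB, and IL-1β and IL-18 are made as precursors that caspase-1 cleaves. The cytokines of the IL-6 family share the receptor chain gp130, encoded by IL6ST, which activates JAK kinases and STAT3. Lung fibroblasts are a known source of IL-6, IL-11 and LIF and respond to IL-1.

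Signals are given as the background-subtracted brightness of a probe after both arrays were brought to the same 75th percentile, 377 in arbitrary units. The lowest signal that Feature Extraction, the scanner's program, flagged as well above background was 7.55 on the array of control siRNA and 7.77 on that of periostin siRNA. A probe that was well above background on a single array gives a bound, written as at least so many fold. Where its dim signal exceeded the lowest value above, the bound equals the observed ratio, is no lower limit and is written as observed. Log2 ratios set periostin siRNA over control siRNA. The error behind a ratio is the SD over spots where a probe was printed 10 times, and otherwise the error that Feature Extraction propagates for 1 spot. Neither covers the difference between cultures. POSTN, the target of the siRNA, had a signal of 2639 with control siRNA and 280 with periostin siRNA, differing by -3.24 ± 0.20 on the log2 scale (propagated error, 1 spot), in the direction that the labels give.

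The 9 fibroblast markers examined, among them COL1A2 and VIM, were well above background on both arrays, with a summed signal of 351976 with control siRNA and 317004 with periostin siRNA. Of the 11 immune cell markers that could be named, 4 were well above background with control siRNA and 6 with periostin siRNA. Their summed signal was 1681 and 2599, most of it from CD68, at 1528 and 2452, and HLA-DRA, S100A8, MS4A1, LAPTM5 and CD163 were below background on both arrays. Of 7 epithelial markers, 4 were well above background on both arrays and their list summed to 345 and 651. EPCAM had a signal of 34.6 with control siRNA and 135 with periostin siRNA and KRT19 had 167 and 342, whereas CDH1, KRT5 and SFTPB were below background on both arrays. The 6 endothelial markers summed to 5625 and 5335, most of it from TEK, and PECAM1 was below background on both arrays. The part of these markers in the differences below was not tested. In RNA from a whole culture, fewer cells expressing a gene and less of its RNA per cell cannot be told apart.

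The interleukins differed in both directions. With periostin siRNA, IL32 and IL6 were higher, IL24 and IL1B were lower, and IL11 was lower by less than 3-fold. LIF and IL15 had smaller differences, and IL1A, IL18 and IL33 were close to background. Past 3-fold, the threshold that the study set, 2 of the 10 genes were higher, where 3.37% of the 16052 genes with a ratio were higher past it, and 2 of the 10 were lower, where 2.75% were. Past 2-fold, 2 were higher and 3 lower, IL11 being the third, where 7.97% and 6.42% of all genes were. Past 4-fold, 1 was higher, IL32, and 0 were lower, where 1.73% and 1.71% of all genes were. Because the 10 genes were chosen with earlier results of these data known, a share above that of all genes is no independent finding. The median log2 ratio of the 10 genes was -0.30, against 0.06 over all 16052 genes, and it was -0.53 over the 7 that were well above background on both arrays. These 7 were IL1B, IL6, IL11, LIF, IL24, IL32 and IL15. The median of the 10 genes lay midway between IL1A, at -0.46, and IL15, at -0.13, each smaller than its error. It also took in the bound of IL18.

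**Figure D1:**
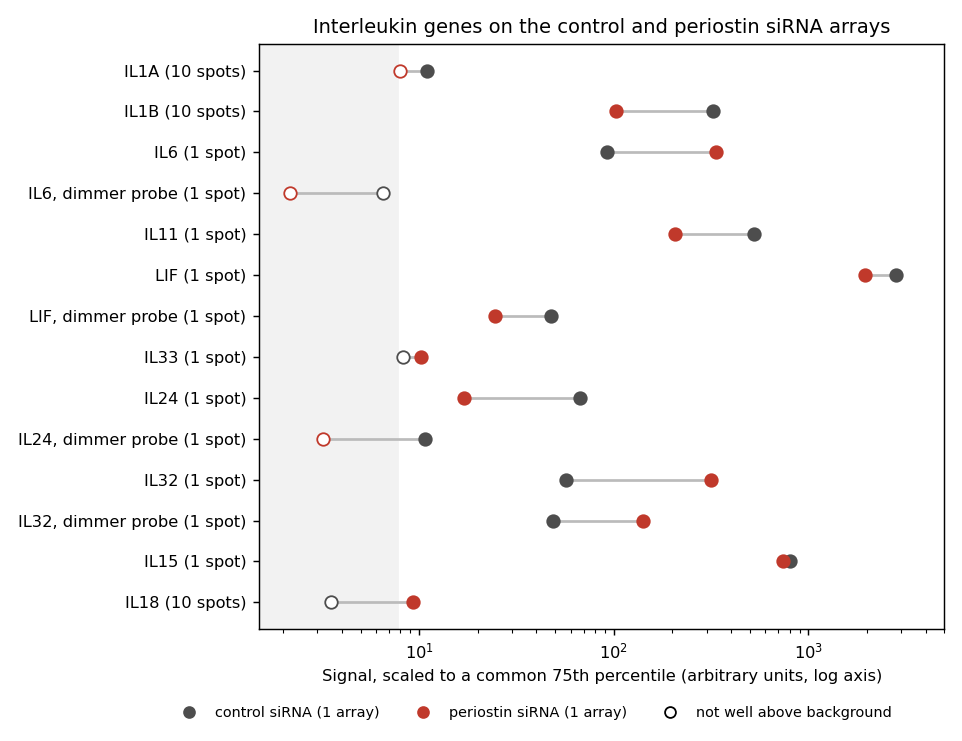
Signal of each probe of the 10 interleukin genes on the control siRNA array (dark) and the periostin siRNA array (red), 1 array each, on a log axis in arbitrary units after scaling to a common 75th percentile. Open circles were not well above background, the shaded range lies below 7.77, and a line joins the 2 signals of a probe. The brighter IL6 probe and both IL32 probes had the red circle to the right, the probes of IL1B, IL11, LIF and IL24 and the dimmer IL6 probe, below background, had it to the left, and the circles of IL15 nearly touched.

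The regions just before the start of the genes with the widest differences, and of IL11, are shown because the genes of this group differed in opposite directions and their upstream sequences can be set side by side. Each is the 250 bases before a start of the gene, read 5′ to 3′ on the strand of the gene, from the RefSeq annotation of GRCh38.p14. The array itself was annotated on hg19, and no position on it is used. IL6 lies on the plus strand at chr7:22726950-22727199, IL32 on the plus strand at chr16:3065153-3065402, IL1B on the minus strand at chr2:112836780-112837029, IL11 on the minus strand at chr19:55370464-55370713, and IL24 on the plus strand at chr1:206897193-206897442. Capitals mark the matches on either strand to 6 motifs of transcription factors known from cytokine genes. IL32 had another window, at chr16:3065534-3065783, which held none of the motifs and is not printed.
IL6: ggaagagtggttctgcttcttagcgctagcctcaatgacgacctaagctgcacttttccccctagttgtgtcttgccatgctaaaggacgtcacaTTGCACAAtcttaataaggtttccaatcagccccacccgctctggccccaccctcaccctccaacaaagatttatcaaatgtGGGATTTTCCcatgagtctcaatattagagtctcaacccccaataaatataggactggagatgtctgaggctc
IL32: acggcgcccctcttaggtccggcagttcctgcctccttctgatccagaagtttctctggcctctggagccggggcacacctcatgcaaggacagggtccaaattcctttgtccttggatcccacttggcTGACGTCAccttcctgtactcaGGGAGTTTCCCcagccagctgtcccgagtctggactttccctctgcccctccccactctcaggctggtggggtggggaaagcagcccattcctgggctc
IL1B: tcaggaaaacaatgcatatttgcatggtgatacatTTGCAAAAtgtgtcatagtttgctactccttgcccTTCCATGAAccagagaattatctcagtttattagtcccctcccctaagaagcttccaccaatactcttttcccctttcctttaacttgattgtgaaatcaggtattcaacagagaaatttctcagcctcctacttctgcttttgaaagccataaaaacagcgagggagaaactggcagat
IL11: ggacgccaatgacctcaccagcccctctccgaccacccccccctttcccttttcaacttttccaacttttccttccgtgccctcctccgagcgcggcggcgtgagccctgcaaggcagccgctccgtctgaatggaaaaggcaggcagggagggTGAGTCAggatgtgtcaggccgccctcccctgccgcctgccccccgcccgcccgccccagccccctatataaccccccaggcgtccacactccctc
IL24: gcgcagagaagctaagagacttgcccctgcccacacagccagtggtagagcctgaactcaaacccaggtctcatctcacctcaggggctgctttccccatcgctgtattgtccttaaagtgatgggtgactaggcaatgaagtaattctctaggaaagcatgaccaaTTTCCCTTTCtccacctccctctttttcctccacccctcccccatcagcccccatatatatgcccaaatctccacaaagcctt

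The motifs searched were the NF-kB consensus, TTGCNNAA for C/EBP, TGANTCA for AP-1, TTCNNNGAA for STAT, the interferon-stimulated response element, and TGACGTCA for the cyclic AMP response element. Windows were at hand for 7 of the 10 genes, 10 windows in all, and for LIF, IL15 and IL18 none is printed. The NF-kB motif stood in the windows of IL6, as GGGATTTTCC from base -73 to -64 before the start, and of IL32, as GGGAGTTTCC from -99 to -90 with an overlapping match from -98 to -89. It stood in 9.96% of all 35116 windows of the same length. The C/EBP motif stood in IL6 from -155 to -148 and in IL1B from -215 to -208, and in 9.05% of all windows. IL1B also held the STAT motif, as TTCCATGAA from -180 to -172, which stood in 6.57% of all windows. IL32 also held the cyclic AMP response element from -121 to -114, found in 1.65% of all windows. The AP-1 motif stood in IL11 from -96 to -90 and in both windows of IL1A, and in 6.57% of all windows. In IL24 the interferon motif stood on the other strand from -83 to -74, and it was found in 3.02% of all windows. The windows of IL33 and the other window of IL32 held none of these letters. These are matches of letters in short windows and no binding was measured.

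IL1B encodes IL-1β, the secreted IL-1 that caspase-1 activates. Its probe was printed 10 times, and the spots ranged from 299 to 354 with control siRNA, with a median of 326, and from 95.3 to 111 with periostin siRNA, with a median of 103. The spots of the arrays did not overlap, and in all 10 pairs the spot was dimmer with periostin siRNA. The mean signal was 324 and 103, a log2 ratio of -1.65 ± 0.10 (SD over 10 spots) or 3.14-fold lower. Of the 10 spot ratios, from -1.83 to -1.48, 8 were past 3-fold, a value of 1.58 on the log2 scale, so the mean was past the threshold by less than its spot SD.

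IL1A encodes IL-1α, which is active without cleavage and can act from within the cell or at its surface. Its 10 spots ranged from 6.54 to 15.6 with control siRNA, with a median of 11.47, and from 5.17 to 12.9 with periostin siRNA, with a median of 7.81. The spots of the arrays overlapped, 8 of 10 were well above background with control siRNA and 4 of 10 with periostin siRNA. The mean signal was 11.0 and 7.98, 1.38-fold lower with periostin siRNA as observed. However, 3 of the 10 spot ratios lay above 0, and the SD over spots, 0.62, was larger than the mean ratio of -0.46.

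IL18 encodes a further cytokine cleaved by caspase-1, and IL33 a nuclear cytokine released from damaged cells. The 10 spots of IL18 ranged from 1.95 to 6.40 with control siRNA, with a median of 3.54, and from 5.07 to 14.9 with periostin siRNA, with a median of 10.7. All 10 spots were brighter with periostin siRNA, although the ranges overlapped. None of the 10 was well above background with control siRNA and 6 were with periostin siRNA, so IL18 was at least 1.23-fold higher. IL33, measured by 1 spot, had a signal of 8.24 with control siRNA, not well above background, and 10.2 with periostin siRNA, 1.24-fold higher as observed. This ratio of IL33, 0.31 on the log2 scale, was smaller than its propagated error of 0.43.

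**Figure D2:**
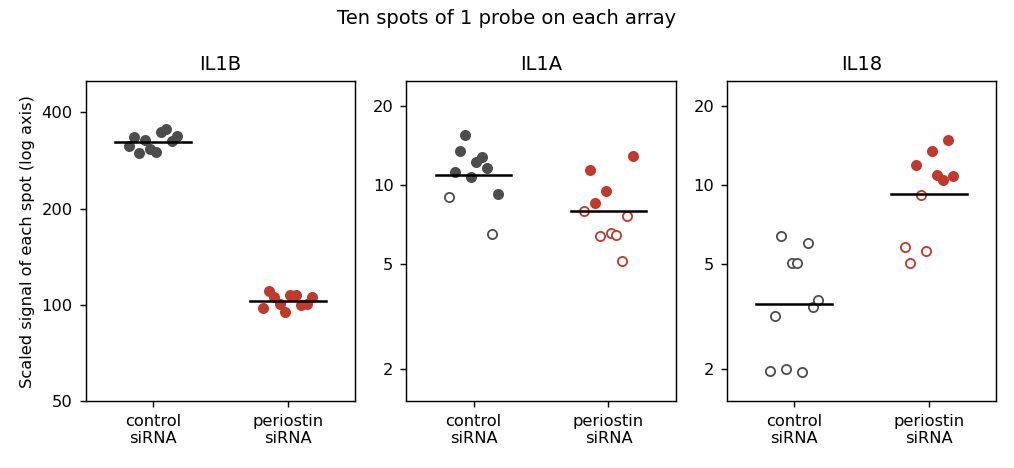
Scaled signal of each of the 10 spots of the IL1B, IL1A and IL18 probes on the control siRNA array and the periostin siRNA array, on log axes that differ between IL1B and the other genes. Open circles were not well above background and the bar is the mean on the log scale. The IL1B spots formed separate groups, from 299 to 354 and from 95.3 to 111, whereas those of IL1A and IL18 overlapped.

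IL6 encodes the founding member of its family, which drives the acute phase response. Its spot read 92.1 with control siRNA and 335 with periostin siRNA, 3.63-fold higher, with a log2 ratio of 1.86 ± 0.21 (propagated error, 1 spot). A second IL6 probe, designed on a predicted transcript, read 6.52 and 2.18 and was below background on both arrays, so it gave no ratio. IL11 encodes a cytokine that acts on fibroblasts through its own receptor and gp130. Its spot read 522 with control siRNA and 207 with periostin siRNA, 2.52-fold lower, with a log2 ratio of -1.33 ± 0.20 (propagated error, 1 spot). IL6 and IL11, which signal through the same chain, thus stood on opposite sides of 0.

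LIF encodes leukemia inhibitory factor, which binds LIFR together with gp130. The brighter LIF probe read 2813 with control siRNA and 1949 with periostin siRNA, differing by -0.53 ± 0.20 on the log2 scale, and the dimmer probe read 47.4 and 24.5, a log2 ratio of -0.95 ± 0.24. Both probes were lower with periostin siRNA, by less than 2-fold each, and their ratios differed by 0.42 with a combined error of 0.32.

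IL24 belongs to the IL-10 family. Its brighter probe read 67.1 with control siRNA and 17.1 with periostin siRNA, 3.93-fold lower, with a log2 ratio of -1.98 ± 0.27 (propagated error, 1 spot). The dimmer IL24 probe read 10.7 and 3.20, was well above background with control siRNA alone, and gave at least 1.37-fold lower. The direction was the same for both, and the bound of the dim probe leaves unknown whether it was past 3-fold.

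IL32 encodes a human cytokine that is unlike the other families in sequence and is known as an inducer of inflammatory cytokines. One probe read 56.9 with control siRNA and 317 with periostin siRNA, 5.57-fold higher, with a log2 ratio of 2.48 ± 0.21. The other read 48.4 and 142, 2.93-fold higher, with a log2 ratio of 1.55 ± 0.21. Both were higher with periostin siRNA, and their ratios differed by 0.93 with a combined error of 0.30, so the size of the difference depended on the probe and only 1 of the probes was past 3-fold.

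IL15 encodes a growth factor of lymphocytes that is handed to neighbouring cells on the IL-15 receptor alpha chain. Its spot read 806 with control siRNA and 737 with periostin siRNA, differing by -0.13 ± 0.20 on the log2 scale (propagated error, 1 spot). This difference was smaller than its error, and a difference of this size was not detectable with 1 spot.

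Under normexp, a background correction fitted by a model, with an offset of 50 added to each signal, IL6 gave 1.44, IL1B -1.23 and IL24 -0.73, so that of the interleukins IL32 alone, at 1.69, was past 3-fold. When the values of a gene's probes were averaged, IL24 gave -1.22 and was no longer past 3-fold. This mean took in the bound of the dim IL24 probe, -0.46, in place of a ratio. It thus leaves unknown whether the mean ratio was past 3-fold.

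**Figure D3:**
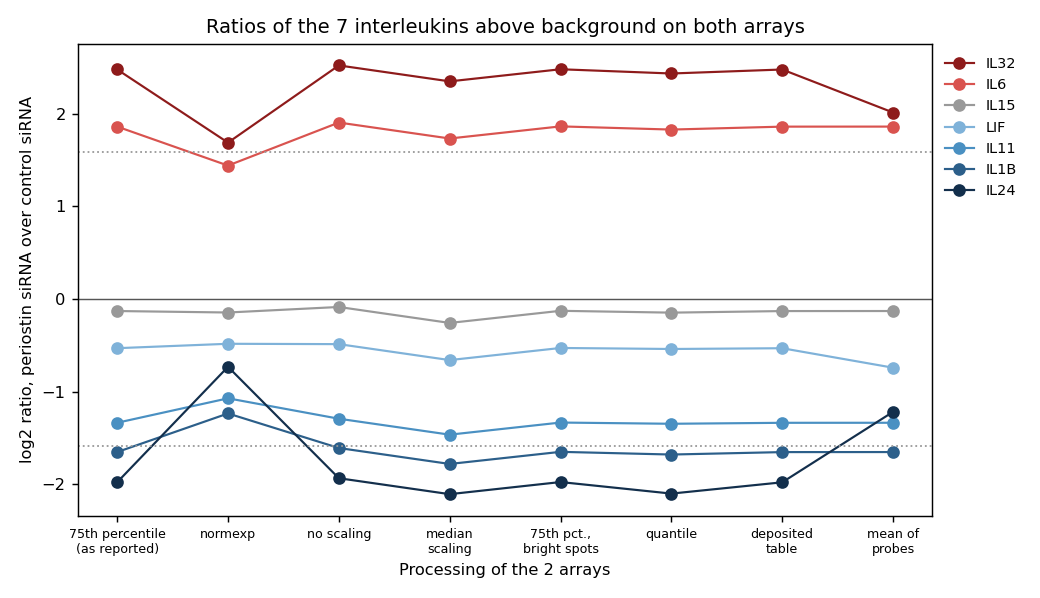
Log2 of periostin siRNA over control siRNA for the 7 interleukins well above background on both arrays, under the processing reported and 7 alternatives, with 1 array per condition. Dotted lines mark 3-fold. Each gene stayed on its side of 0, while IL6, IL1B and IL24 lay inside 3-fold under normexp. IL24 also lay inside it with the mean of probes, which took in a bound.

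The receptors of the interleukins and the genes of their pathways were described from 9 lists that together held 120 genes, of which 90 had a ratio. Past 3-fold, 4 of the 90 were higher (JAK3, ICAM1, TNFAIP3 and BIRC3) and 4 were lower (IL18R1, SOCS3, IL15RA and MMP1), and the median log2 ratio of the 90 was 0.18. Over all 16052 genes 3.37% were higher and 2.75% were lower past it, so at 3-fold the lists as a whole lay near the rate of the array. At 2-fold their share was larger than that of the array, as given below among the alternatives. Under normexp IL18R1 gave -1.46 and TNFAIP3 0.86, and the bound of BIRC3 was 0.89, so that these 3 were no longer past 3-fold.

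Among the receptors of the IL-1 family, the binding chain for IL-18 was past 3-fold. IL18R1 had 3 probes. The brightest read 153 with control siRNA and 20.6 with periostin siRNA, differing by -2.89 ± 0.24 on the log2 scale, another read 86.9 and 11.49, a log2 ratio of -2.92 ± 0.28, and the dimmest, below background with periostin siRNA, was at least 3.66-fold lower. The 3 probes of IL18R1 were lower by more than 3-fold each. Its partner chain IL18RAP read 66.6 and 96.9, a log2 ratio of 0.54 ± 0.21, and IL18BP, the soluble inhibitor of IL-18, read 12.7 and 20.6, a log2 ratio of 0.70 ± 0.33.

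IL1R1, the signalling receptor of IL-1α and IL-1β, read 1703 with control siRNA and 1170 with periostin siRNA on its brighter probe, differing by -0.54 ± 0.20 on the log2 scale, and its other probe gave -0.73 ± 0.20. IL1RAP, the accessory chain, read 155 and 231, a log2 ratio of 0.58 ± 0.20, with 0.15 ± 0.21 on another probe. The decoy receptor IL1R2 and the IL-33 receptor IL1RL1 were well above background with control siRNA alone, with signals of 10.8 and 14.8, and were at least 1.39-fold and at least 1.90-fold lower, which leaves unknown whether they were past 3-fold. IL1RN, the IL-1 receptor antagonist, gave -0.34 ± 0.23 on its brighter probe, from 36.1 to 28.6, and 0.58 ± 0.38 on a dimmer one, so that its direction depended on the probe, and the mean of both was 0.12. Of the 17 genes of receptors, adaptors and inhibitors, 16 had a ratio, with a median of 0.27. Past 3-fold, 0 were higher and 1 was lower, where 3.37% and 2.75% of all genes were.

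Among the receptors of the IL-6 family, the shared chain and LIFR were lower with periostin siRNA, and the chains that bind IL-6 and IL-11 were higher. IL6ST had 7 probes, all well above background on both arrays, with log2 ratios from -1.50 to -0.62. Its brightest probe read 5990 with control siRNA and 2614 with periostin siRNA, differing by -1.20 ± 0.20 on the log2 scale. IL6R, which binds IL-6, was higher, at 172 and 288 on the brighter probe with a log2 ratio of 0.74 ± 0.20 and 1.05 ± 0.21 on the other. IL11RA, which binds IL-11, read 449 and 1004, a log2 ratio of 1.16 ± 0.20. LIFR, the LIF receptor, read 221 and 114, a log2 ratio of -0.96 ± 0.21, and OSMR, the oncostatin M receptor, gave -0.18 ± 0.20 and -0.86 ± 0.21 on its probes. None of these receptor chains was past 3-fold on any probe.

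Past 3-fold in the list of IL-6 family receptors and signalling was SOCS3, the feedback inhibitor of gp130, which read 2256 with control siRNA and 598 with periostin siRNA with a log2 ratio of -1.92 ± 0.20. SOCS1, singled out after its values were seen, read 389 and 1165, 2.996-fold higher, just inside the threshold. It was past the threshold without scaling, at 1.63 on the log2 scale, and just past it, at 1.59, when scaled on spots well above background on both arrays and after quantile normalization, each of which gave 1 higher gene in its list. STAT3, also chosen after its values were seen, read 394 and 789 on its brighter probe and 206 and 413 on the other, the same ratio on each. The latter had an SD of 0.11 on the log2 scale over its 10 spots, with 2 outlier flags. PTPN11, likewise chosen after its values were seen, was lower on each of its 3 probes, with log2 ratios from -1.30 to -1.08. In this list 9 ratios lay above 0 and 6 below. Of the 16 genes of this list 15 had a ratio, with a median of 0.10, and this median was -0.031 when the arrays were scaled on their medians. Past 3-fold, 0 were higher and 1 was lower, where 3.37% and 2.75% of all genes were.

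The receptor side of IL-15 differed where IL15 itself did not detectably. IL15RA, the chain that carries IL-15 to its target cell, read 452 with control siRNA and 76.4 with periostin siRNA on its brightest probe, differing by -2.56 ± 0.21 on the log2 scale. A second IL15RA probe read 333 and 102, a log2 ratio of -1.71 ± 0.21. The third, not well above background with periostin siRNA, was 5.59-fold lower as observed, so that each was past 3-fold. JAK3, the kinase bound by the common gamma chain, read 222 and 1065 on its brighter probe, a log2 ratio of 2.26 ± 0.20, whereas a dimmer JAK3 probe read 19.8 and 25.8, a log2 ratio of 0.38 ± 0.27. The call for JAK3 thus rested on 1 of its probes, and their mean, 1.32, was not past 3-fold. IL2RB was at least 2.29-fold higher from a signal below background with control siRNA, and IL2RG gave 0.46 ± 0.23. Of the 6 genes of this list, 1 was higher and 1 lower past 3-fold, where 3.37% and 2.75% of all genes were. The median of the list was 0.49.

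Of the chains through which IL-24 signals, IL20RB read 89.3 with control siRNA and 140 with periostin siRNA, differing by 0.65 ± 0.21 on the log2 scale, and IL20RA and IL22RA1 were below background on both arrays. A partner chain for IL20RB was therefore not detectable at this signal over background.

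In the list of 18 genes known to respond to IL-1, 16 had a ratio, and the median was 0.62. Past 3-fold, 3 of the 16 were higher and 1 was lower, where 3.37% and 2.75% of all genes were. ICAM1, an adhesion molecule, read 257 with control siRNA and 1008 with periostin siRNA, differing by 1.97 ± 0.10 on the log2 scale (SD over 10 spots). TNFAIP3, an inhibitor of NF-kB signalling, read 30.6 and 102, a log2 ratio of 1.74 ± 0.22. BIRC3, a ubiquitin ligase of the same pathway, was not well above background with control siRNA, at 8.12, and read 74.7 with periostin siRNA, 9.20-fold higher as observed. MMP1, the interstitial collagenase, read 48027 and 12795, a log2 ratio of -1.91 ± 0.04 (SD over 10 spots, with 3 outlier flags). The genes of this list thus lay on both sides of 0, with 10 ratios above and 6 below.

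Of 12 genes known to respond to STAT3 or to belong to the acute phase response, 10 had a ratio. None was past 3-fold on its brightest probe, and the median was 0.24, with 6 ratios above 0 and 4 below. SERPINA3, chosen after its values were seen, read 45.0 with control siRNA and 108 with periostin siRNA on its brightest probe, 2.40-fold higher. Its dimmer probes, below background with control siRNA, were at least 1.62-fold and at least 3.20-fold higher. CEBPB, a transcription factor that binds the C/EBP motif, was chosen after its values were seen. It read 20098 with control siRNA and 6706 with periostin siRNA, differing by -1.58 ± 0.03 on the log2 scale (SD over 10 spots). This lay just inside 3-fold, and past it when the arrays were scaled on their medians, at -1.71, and after quantile normalization, at -1.64, each of which gave 1 lower gene in its list. The further ligands of the IL-6 family (OSM, CNTF, CTF1, CLCF1, IL27 and IL31) had 5 ratios of 6, none past 3-fold, and a median of 0.17. CTF1, cardiotrophin, chosen after its values were seen, read 2124 and 4099, a log2 ratio of 0.95 ± 0.20.

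**Figure D4:**
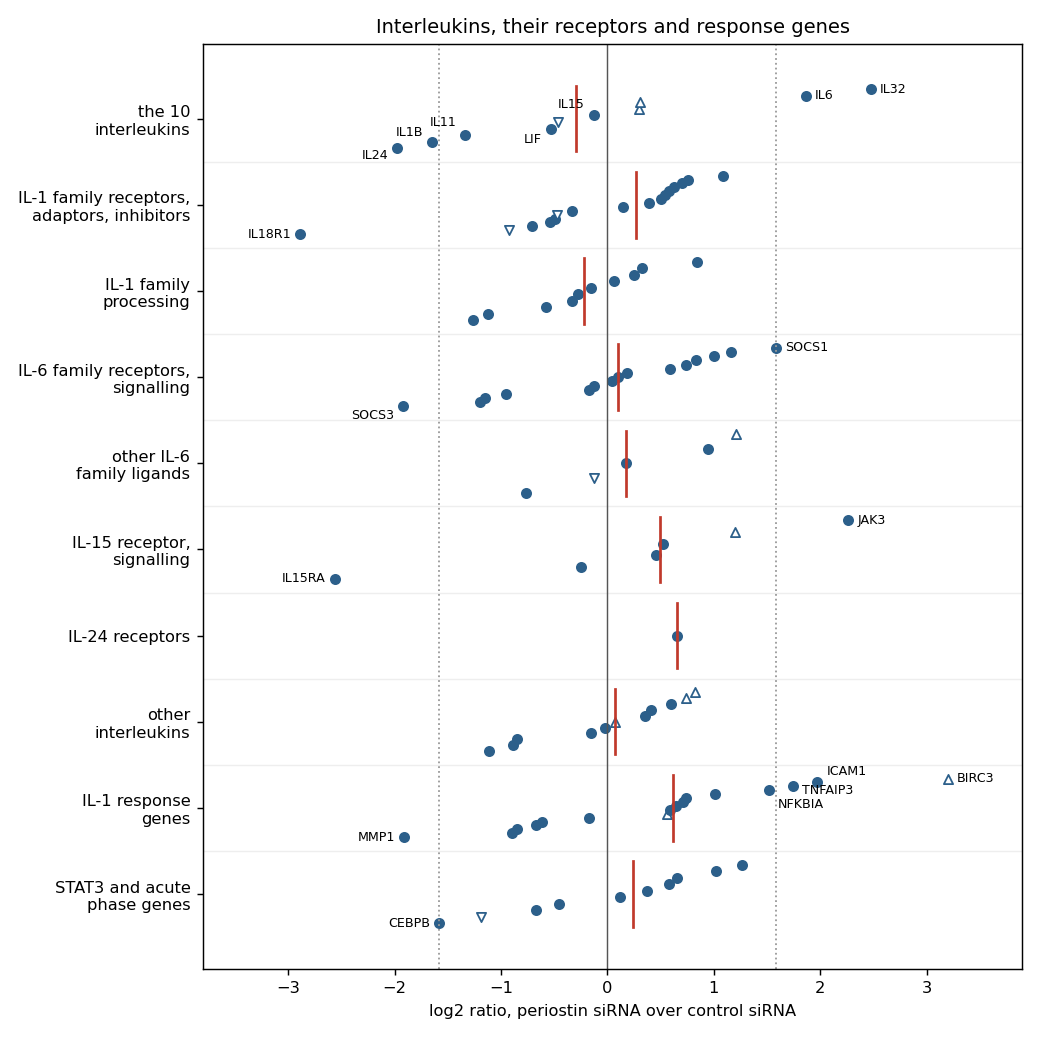
Log2 of periostin siRNA over control siRNA for the brightest probe of each gene, for the 10 interleukins and the 9 lists of their receptors, signalling, processing and response genes, from 1 array per condition. Circles are genes well above background on both arrays, red bars are medians and dotted lines mark 3-fold. Triangles are genes well above background on a single array, shown as bounds or, where the dim signal was high enough, as observed ratios. IL32 and IL6 stood to the right in the upper row and IL24 and IL1B to the left, with IL18R1, IL15RA, SOCS3 and MMP1 past 3-fold on the left and JAK3, ICAM1, TNFAIP3 and BIRC3 on the right.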

How the data were processed

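Total RNA of MRC-5 cells was labelled with Cy3 and hybridized to 2 Agilent arrays on the same slide, 1 per condition. Deposited were the scanner files, with intensity values from which Feature Extraction had subtracted the background, and a table of normalized intensity values, which for 100% of the probes printed once equals the scanner intensity times a constant of its array, 3.65 (control siRNA) or 3.54 (periostin siRNA), within 1%. The file headers give Feature Extraction 11.5.1.1 and the submitters' processing notes 12.0.3.1. Also read were the median brightness and the local background of each spot, for normexp, and the signal error, for the propagated errors. The remaining columns that were read, such as flags and accessions, are no measurements.

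The processed signal was taken to log2 and set relative to its array's 75th percentile over the 58717 spots that are no controls, 372 (control siRNA) and 383 (periostin siRNA) before this step. Of these spots, 58.0% and 58.9% were well above background and 0 were saturated. Repeated spots were averaged as log2 values, and the brightest probe stood for a gene. A bound divides the bright signal by that of the dim probe or by the lowest one well above background on the same array as the dim probe, whichever is higher. RefSeq accessions named 65.1% of the spots. Precision is limited by the number of arrays, and no test was run.

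The 10 interleukins and all lists were chosen with earlier results of these data known. Named are all probes of the 10 genes, POSTN, their receptor chains, IL1RN and IL18BP, and genes of the lists past 3-fold; others are said to be chosen after their values were seen. Python 3.11.15, pandas 2.3.3, numpy 2.4.6, matplotlib 3.10.9 and, for normexp and quantile normalization, limma 3.58.1 in R 4.3.3 were used. The scripts were tested on simulated data. A gene of 1 pathway list and a marker gene are not reported here and are left out of the counts of their lists. The alternatives were normexp with an offset of 50 on the median spot brightness (the files hold no mean), no scaling, scaling on the median or on spots well above background on both arrays, quantile normalization, the deposited table, the mean over probes, only probes well above background on both arrays, and thresholds of 2-fold and 4-fold.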

Additional observations from a re-analysis of the deposited data

How the results depend on the processing

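No paired analysis was possible because there was 1 array of each condition, which also leaves no replicate to omit. None of the 7 interleukins well above background on both arrays changed sign under any alternative run. The values of IL1A, IL18 and IL33 are kept only on 1 side of 0, so these genes could not change sign. The normexp correction, whose offset of 50 shrinks ratios of dim probes by its construction, gave -2.99 for POSTN, 1 interleukin higher and 0 lower past 3-fold, an interleukin median of -0.11, and 2 higher and 3 lower genes, against 4 and 4, over the pathway lists. Scaling on the median moved the median of all genes by -0.13 and gave an interleukin median of -0.42 and a median of -0.031 for the receptors and signalling of the IL-6 family. With only probes well above background on both arrays the interleukin median was -0.53 and that of the other interleukins -0.087. The mean over probes, which for IL24 took in a bound, left 1 interleukin lower past 3-fold and turned IL1RN to 0.12. SOCS1 crossed 3-fold under 3 alternatives and CEBPB under 2. At 4-fold, 1 interleukin was higher and 0 were lower, with 2 higher and 2 lower in the pathway lists. At 2-fold the pathway lists had 14 higher and 11 lower of 90 genes, where 7.97% and 6.42% of all genes were. Of all genes past 3-fold, 55.1% were higher, against 42.9% under normexp and 46.3% under scaling on the median. The log2 ratio of IL1B ranged from -1.78 to -1.23 over the alternatives, IL6 from 1.44 to 1.91, IL11 from -1.46 to -1.07, LIF from -0.74 to -0.48, IL24 from -2.10 to -0.73, IL32 from 1.69 to 2.52 and IL15 from -0.26 to -0.08. Signal over background limits IL18 to a bound, and IL1A and IL33 to observed ratios with a dim signal on 1 array.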

Other observations

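Interleukins outside the 10 genes were mostly below background. Of 29 further interleukin genes, 18 were below background on both arrays, among them IL2, IL4, IL10 and IL13, 11 had a ratio, and none of the 11 was past 3-fold, with a median log2 ratio of 0.07. The genes named here and in the next paragraph were chosen after their values were seen. IL17D, a member of the IL-17 family, read 638 with control siRNA and 345 with periostin siRNA, differing by -0.88 ± 0.20 on the log2 scale. IL34, a ligand of the CSF1 receptor, had 2 of 10 spots well above background with control siRNA and 10 of 10 with periostin siRNA, and was at least 1.77-fold higher, with 3 outlier flags among its spots.

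The list for processing of the IL-1 family held 13 genes, among them caspases, inflammasome sensors and an adaptor. Of these 13 genes, 10 had a ratio, none was past 3-fold, and the median was -0.22. CASP1, which cleaves the precursors of IL-1β and IL-18, read 6526 with control siRNA and 4361 with periostin siRNA, differing by -0.58 ± 0.20 on the log2 scale. The related caspases CASP4, at 19778 and 9057, and CASP5, at 5579 and 2321, gave -1.13 ± 0.20 and -1.27 ± 0.20. The inflammasome sensors NLRP3, NLRC4 and AIM2 were below background on both arrays, whereas NLRP1 read 88.3 and 159 on its brighter probe, a log2 ratio of 0.85 ± 0.21, and the adaptor PYCARD read 4510 and 4044, a log2 ratio of -0.16 ± 0.20.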
